A study of Homo sapiens with 6 samples.

Results

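Noncoding snoRNA host transcripts are long RNAs whose introns hold small nucleolar RNAs. The 10 genes GAS5, SNHG1, SNHG3, SNHG5, SNHG6, SNHG7, SNHG8, SNHG9, SNHG10 and SNHG12 were taken by their symbol in the table of array signals, with all their probes. They had 14 of the 47231 probes outside the control rows, and were 10 of 31307 symbols. All 10 are listed as lncRNA in the RefSeq gene table, and each of the 10 spans at least 1 small RNA there, so the name holds. The cells were MDA-MB-231, an established human line from a triple-negative breast cancer. Of its label, ESR1 and PGR, the hormone receptors, were detected on 0 of 6 arrays. For ERBB2, the third receptor, 2 of 3 probes were detected on 0 arrays and 1 on 6. VIM and CD44, markers of mesenchymal-like lines, were detected on 6. One group received riluzole at 25 µM, a drug of amyotrophic lateral sclerosis that dampens glutamate release, and the other its solvent DMSO as vehicle. The sample labels give 24 hours, whereas the series calls the treatment overnight. There were 3 arrays per group. The labels do not say that these came from separate cultures, so p-values speak of the spread between these samples alone, and part or all of it may be technical.

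A snoRNA is cut from a spliced-out intron, trimmed and bound by its proteins, and it then guides the chemical modification of ribosomal or spliceosomal RNA. Box C/D snoRNAs (SNORD) guide methylation of the ribose, and box H/ACA snoRNAs (SNORA) guide the change of uridine to pseudouridine. Most human snoRNAs lie in introns of genes for ribosomal and nucleolar proteins. In the 10 genes studied here the spliced exons code for no known protein, and in several of them they are degraded by nonsense-mediated decay. Host and snoRNA start from 1 precursor, but the spliced exons and the snoRNA are then degraded at their own rates. Many of these hosts belong to the TOP class, whose transcripts begin with a C and a run of pyrimidines and respond to growth signals. GAS5 was first found as a transcript that accumulates in growth-arrested cells.

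RefSeq's promoter table for GRCh38.p14 held an entry for 8 of the 10 hosts. Windows from 50 bases before to 50 after the annotated start are shown for SNHG7, which held the probe that rose, for SNHG12 and SNHG3, the hosts with the lowest values with riluzole against vehicle, and for SNHG8 and SNHG5. Capitals mark the letters TATAA between 40 and 16 bases before the start, and a run of at least 6 pyrimidines that begins with C within 20 bases of the start.
SNHG7, GRCh38.p14 chr9:136728135-136728234, minus strand: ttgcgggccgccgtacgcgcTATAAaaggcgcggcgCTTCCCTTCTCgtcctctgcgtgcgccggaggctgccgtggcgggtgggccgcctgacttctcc
SNHG12, GRCh38.p14 chr1:28581824-28581923, minus strand: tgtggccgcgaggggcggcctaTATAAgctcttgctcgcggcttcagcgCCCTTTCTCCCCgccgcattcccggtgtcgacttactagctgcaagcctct
SNHG8, GRCh38.p14 chr4:118278712-118278811, plus strand: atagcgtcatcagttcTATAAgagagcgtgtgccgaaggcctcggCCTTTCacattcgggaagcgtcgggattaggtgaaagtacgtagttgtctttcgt
SNHG5, GRCh38.p14 chr6:85678684-85678783, minus strand: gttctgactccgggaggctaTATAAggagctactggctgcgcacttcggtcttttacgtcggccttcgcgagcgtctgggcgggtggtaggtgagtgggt
SNHG3, GRCh38.p14 chr1:28505893-28505992, plus strand: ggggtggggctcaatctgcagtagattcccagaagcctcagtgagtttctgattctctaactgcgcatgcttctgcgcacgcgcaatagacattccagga
On the sense strand, TATAA stood in that interval in 4 of the 8 windows, those of SNHG5, SNHG7, SNHG8 and SNHG12, against 3.9% of all 35116 promoters. Over the whole 300 bases and both strands it stood in 5 of 8, against 20.4%. The pyrimidine run was found in 4 of 8, against 32.6%, and in these windows it did not overlap TATAA. The run was longest in SNHG12, with 12 bases, and in SNHG7, with 11. Counted from the annotated start, its first base lay at -1 in SNHG12, -5 in SNHG8, -14 in SNHG7 and -19 in SNHG1. In SNHG7 and SNHG1 the run ended before that start, so it is not part of the annotated transcript. Over the whole 300 bases, the palindrome CACGTG stood in 1 of 8 promoters, that of SNHG7, outside the window shown, against 7.3%. That letter sequence is bound by MYC and related factors. The letters TGATGNAA, part of the element bound by ATF4, stood in 0 of 8 over the same 300 bases on either strand, against 3.6%. These matches describe letters in a reference sequence, and the start used for SNHG12 is not the outermost end of that gene in the gene table.

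Signals were compared as log2 values after background correction and quantile normalization. A probe was kept when it was detected, with a detection p under 0.05 against negative controls, on at least 3 of 6 arrays. Between 20516 and 20959 probes were detected per array, and 20788 were kept. With limma, 145 of these 20788 probes passed an adjusted p of 0.05, which is 0.698%. Of these, 95 were higher (0.457%) and 50 lower (0.241%) with riluzole. The groups did not overlap for 21.8% of the kept probes.

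Of the 14 host probes, 12 were kept, and they stood for 9 of the 10 genes. With riluzole 1 of the 12 rose, a probe of SNHG7, and 0 fell, while 0.698% of all kept probes passed. At an unadjusted p under 0.05 there were 3, which also counts SNHG3 and SNHG12, against 15.6% of all kept probes. The groups did not overlap for 2 probes that lay higher and 3 that lay lower, and 7 overlapped, against 21.8% of all kept probes without overlap. The median log2 fold change of the 12 host probes was -0.08, against -0.0036 over all kept probes, and 7 of the 12 were negative, against 50.8% of all kept probes. Because total RNA of a whole culture was measured, fewer cells with a transcript and less RNA per cell cannot be told apart.

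**Figure D1:**
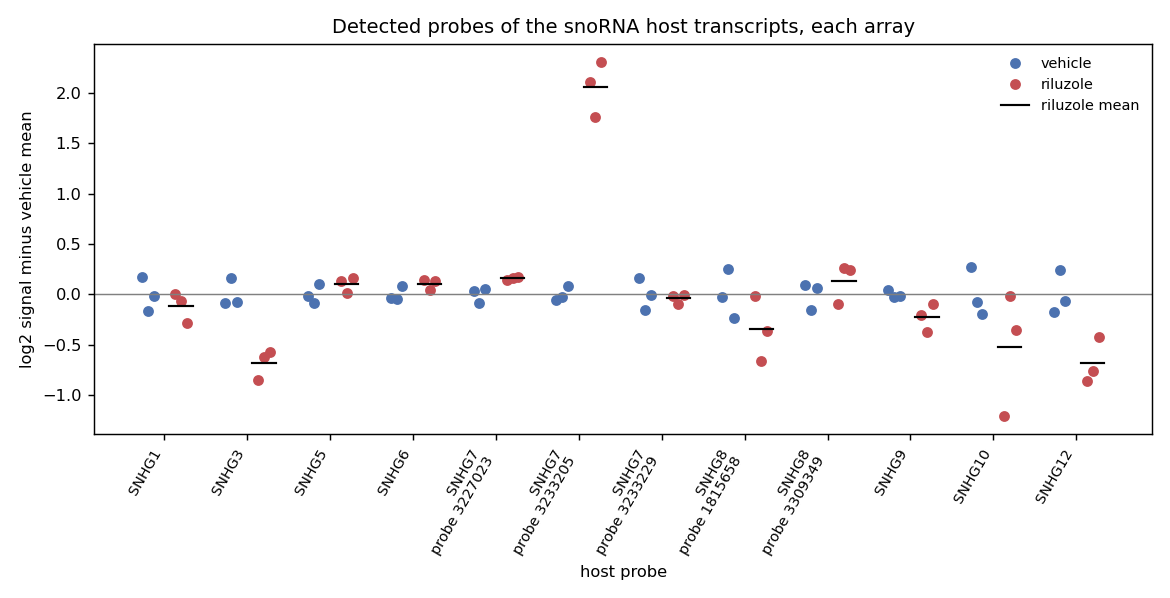
Each of the 12 kept host probes is plotted as the log2 signal of each array minus the mean of the 3 vehicle arrays, with vehicle in blue, riluzole in red and a black line at the riluzole mean. A single SNHG7 probe stands about 2.06 log2 units above the vehicle mean, SNHG3 and SNHG12 lie near -0.68, and the remaining probes lie between -0.52 and 0.16.

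SNHG7 carried 3 probes, and they did not behave alike. The dimmest, ILMN_3233205, read 6.56, 6.60 and 6.71 log2 units on the vehicle arrays and 8.73, 8.38 and 8.93 on the riluzole arrays. Every riluzole array lay far above every vehicle array. As raw signal the probe went from 192 ± 4.64 to 500.3 ± 60 (mean ± SD, n = 3 per group). It rose 4.16-fold (95% interval 3.27 to 5.29), with an adjusted p of 0.00640 in limma's fit. Of the 20788 kept probes 0 had a larger log2 rise, and by p it ranked 2. Without background correction its log2 fold change was 1.39 in place of 2.06, and it still passed (adjusted p = 8.24e-06).

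The other two SNHG7 probes did not pass. ILMN_3227023 read 11.97, 11.85 and 11.99 with vehicle and 12.08, 12.10 and 12.10 with riluzole. These groups do not overlap, yet the log2 fold change was 0.16 (95% interval -0.08 to 0.39, adjusted p = 0.516 in limma's fit). ILMN_3233229 read 10.07, 9.76 and 9.91 against 9.89, 9.82 and 9.91, with a log2 fold change of -0.04 (-0.31 to 0.23, adjusted p = 0.918). On these brighter probes a change as large as that of ILMN_3233205 lies outside the intervals. The log2 difference of ILMN_3233205 from ILMN_3227023 on the same array was higher with riluzole by 1.90, and that from ILMN_3233229 by 2.10. In neither pair did the groups overlap, but ILMN_3233205 was singled out for its rise, so these differences are given as a description. Over the 3727 genes with several kept probes, the median spread of log2 fold changes between probes was 0.17, and 1 gene, SNHG7 itself, reached 2.10. That spread contains the same rise, the largest of all kept probes, so it too is a description. The table gives no probe sequences, so which exon, intron or isoform each SNHG7 probe reads was not tested.

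Of the probes for the 2 H/ACA snoRNAs in SNHG7, 1 rose and the other did not pass. Whether they read mature snoRNAs was not tested. SNORA17B, named SNORA43 on the array, is the second of the 2 from the start of the gene. It read 5.20, 5.02 and 5.36 log2 units with vehicle and 7.37, 6.40 and 7.25 with riluzole. It was detected on 0 of 3 vehicle arrays and on 3 of 3 riluzole arrays, so it was kept through the riluzole group alone. The mean went from 5.19 ± 0.17 to 7.01 ± 0.53 (SD, n = 3 per group), with an adjusted p of 0.0254 in limma's fit. The riluzole mean lay 2.63-fold above the lowest detected signal of each vehicle array, on the background-corrected scale. That figure takes no account of the spread between arrays, so it is not a lower limit. The 95% interval of the fold in limma's fit ran from 2.39 to 5.19, and it rests on undetected vehicle signals. Without background correction the log2 fold change of SNORA43 was 0.91, and with the authors' processed values it was 2.55, against 1.82. With vehicle replicate 1, 2 or 3 left out SNORA43 no longer passed (adjusted p = 0.0854, 0.0885 and 0.0803), and without any riluzole array the probe missed the detection filter.

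SNORA17A, named SNORA17 on the array, is the first in the gene. It read 6.65, 6.64 and 6.59 with vehicle and 5.73, 6.82 and 6.43 with riluzole. These groups overlap, with riluzole arrays on both sides of the tight vehicle group, and the log2 fold change was -0.30 (adjusted p = 0.616 in limma's fit).

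**Figure D2:**
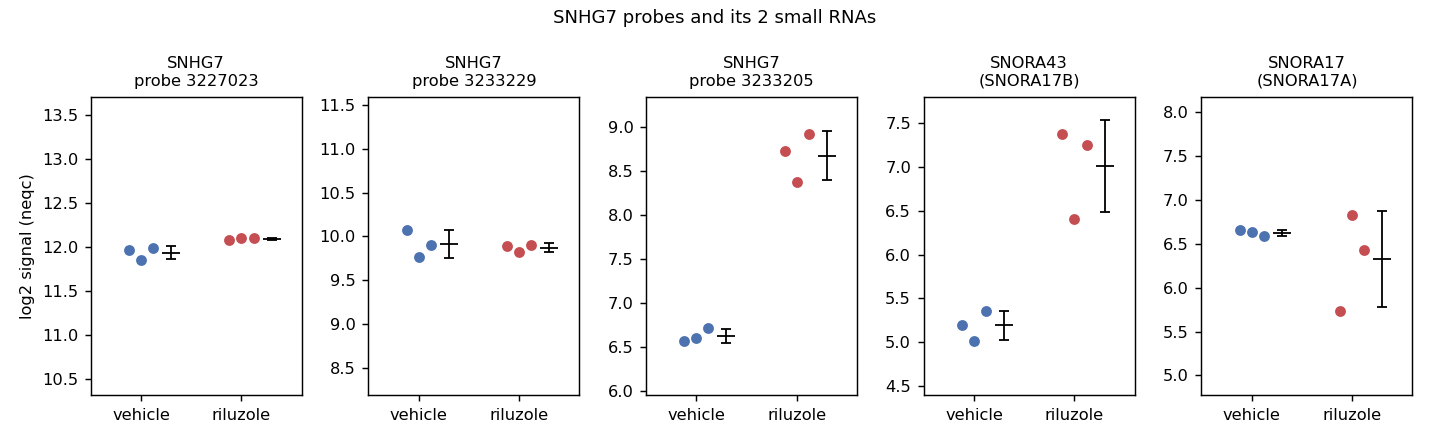
Log2 signal of the 3 SNHG7 probes and of the 2 small RNAs of that gene on each array, every panel spanning the same range of log2 units, with points for arrays and black bars for the mean ± SD of 3. ILMN_3233205 and SNORA43 step up with riluzole, while ILMN_3227023, ILMN_3233229 and SNORA17 do not pass the test.

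The probes of SNHG12 and of all its detected small RNAs lay lower with riluzole, and 1 of them passed the test. SNHG12 itself, a transcript of chromosome 1, read 7.72, 8.14 and 7.82 log2 units with vehicle and 7.04, 7.13 and 7.47 with riluzole. The riluzole arrays were all below the vehicle arrays, with a log2 fold change of -0.68 (95% interval -1.05 to -0.31). It did not pass (adjusted p = 0.106 in limma's fit), but it did pass in 3 of 8 other settings, among them the fit without background correction (0.0308).

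The probe of SNORA16A, an H/ACA snoRNA and the first small RNA in SNHG12, fell, and which RNA it reads was not tested. It read 7.15, 7.03 and 7.05 with vehicle and 5.94, 6.02 and 5.80 with riluzole. The gap between the groups was wider than the spread within either one. The fold was 2.23 lower (95% interval 1.87 to 2.65, n = 3 per group), with an adjusted p of 0.00951 in limma's fit. Without background correction its log2 fold change was -0.58 in place of -1.15, still past the threshold (adjusted p = 0.00218). SNORA16A no longer passed when vehicle replicate 2 (adjusted p = 0.0510), riluzole replicate 1 (0.0563) or riluzole replicate 3 (0.0609) was left out.

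SNORA61, the H/ACA snoRNA that follows further along SNHG12, read 10.17, 10.22 and 9.97 with vehicle and 9.47, 9.37 and 9.53 with riluzole. It had a log2 fold change of -0.66 (-0.93 to -0.40) and an adjusted p of 0.0512, just above the threshold. The C/D snoRNA SNORD99, the last of the gene, read 6.68, 6.76 and 6.64 against 6.61, 5.88 and 5.83, with a log2 fold change of -0.59 (adjusted p = 0.217). Neither pair of groups overlapped, although riluzole replicate 1 of SNORD99 lay only just under the vehicle arrays. Under the 8 other settings SNORA61 passed 4 times, SNORD99 passed 0 times, and neither passed when any single array was dropped. Relative to the SNHG12 probe on the same array, SNORA61 moved by 0.01, SNORD99 by 0.09 and SNORA16A by -0.48 log2 units. In all 3 of these comparisons the groups overlapped (exact permutation p = 1, 0.9 and 0.2, two-sided), so a difference between host and small RNA was not detectable with 3 arrays per group. SNORA44, the other small RNA of SNHG12, had no probe under that name.

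**Figure D3:**
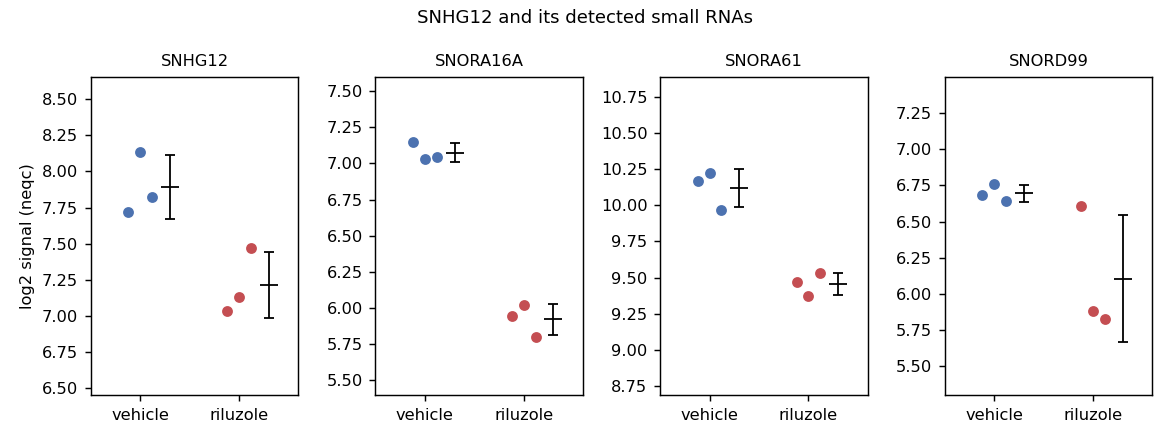
Log2 signal of SNHG12 and its 3 detected small RNAs on each array, every panel spanning the same range of log2 units, with the mean ± SD of 3 in black. All 3 riluzole arrays lie below all 3 vehicle arrays in each panel, most widely for SNORA16A.

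SNHG3, which holds the H/ACA snoRNAs SNORA73A and SNORA73B, lies close to SNHG12 on chromosome 1. Its probe read 6.12, 6.37 and 6.14 log2 units with vehicle and 5.36, 5.59 and 5.64 with riluzole. The groups did not overlap, but only 1 riluzole array, against 3 with vehicle, gave a detected signal, which leaves the fold inexact. The log2 fold change was -0.68 on the background-corrected scale (adjusted p = 0.0600 in limma's fit), -0.30 without background correction and -1.03 with the authors' processed values. With 1 probe per gene, where fewer probes were tested, SNHG3 passed (0.0475). For SNORA73A the log2 fold change was -0.56 with groups that did not overlap (adjusted p = 0.149), and for SNORA73B it was -0.19 (0.516). The RefSeq table gives the array name RNU105A as a synonym of SNORA73B, and that probe had -0.08 (0.867). In the gene table SNHG3 overlaps the start of RCC1, a regulator of chromatin condensation, whose kept probe stood at -0.37 log2 units (adjusted p = 0.159). TRNAU1AP overlaps the end of SNHG12 by a few bases, and its 2 kept probes had -0.27 and 0.52 (0.456 and 0.164). Whether the probes of these overlapping genes share transcripts was not tested.

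SNHG1 holds 8 box C/D snoRNAs, and neither the host nor any of its detected snoRNAs passed the test. The host probe read 12.06, 11.72 and 11.87 log2 units with vehicle and 11.89, 11.82 and 11.60 with riluzole. The groups overlapped, with a log2 fold change of -0.11 (95% interval -0.42 to 0.19, adjusted p = 0.756 in limma's fit). SNORD30 and SNORD31, which neighbour each other as the sixth and the seventh from the start, both lay lower with riluzole. SNORD30 read 7.92, 8.11 and 8.15 against 7.23, 7.02 and 7.50, with a log2 fold change of -0.81 (adjusted p = 0.0547). SNORD31 read 7.84, 7.43 and 7.72 against 6.53, 7.14 and 7.30, with a log2 fold change of -0.67 (0.182). Neither passed, although SNORD30 passed in 5 of 8 other settings, with adjusted p from 0.00712 to 0.127. SNORD22, the eighth and last, lay the other way. It read 5.94, 5.39 and 5.58 with vehicle and 6.23, 6.08 and 6.21 with riluzole. Detection was reached by 1 of the vehicle arrays and by all 3 with riluzole, and the log2 fold change of 0.54 did not pass (adjusted p = 0.149). SNORD25, the first, stood at 0.01 (0.990). SNORD26, SNORD27 and SNORD28 were detected on 0 of 6 arrays, and SNORD29 had no probe under that name. Relative to the SNHG1 probe on the same array, SNORD31 moved by -0.56 log2 units with groups that did not overlap, and SNORD30 by -0.69 with overlapping groups (exact permutation p = 0.1 and 0.2, two-sided). Without background correction the groups overlapped for SNORD31 too (-0.31, exact permutation p = 0.3).

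GAS5, a growth arrest transcript that holds 10 mapped box C/D snoRNAs, could not be compared. Its only probe was detected on 0 of 6 arrays, and its raw signal averaged 124 ± 0.994 on vehicle arrays and 118 ± 6.35 on riluzole arrays (SD, n = 3 per group). Negative control probes averaged between 106 and 111 per array. Of the GAS5 snoRNAs, 8 had a probe and 2 were kept. SNORD80 read 8.70, 8.42 and 8.17 log2 units with vehicle and 7.82, 7.55 and 7.95 with riluzole. All riluzole arrays lay below the vehicle arrays, and the log2 fold change of -0.66 did not pass (95% interval -1.04 to -0.28, adjusted p = 0.120 in limma's fit). SNORD76, with a detected signal on 2 arrays of the vehicle group and 1 of the other, stood at -0.17 (0.597). SNORD44, SNORD47, SNORD74, SNORD77, SNORD78 and SNORD79 were detected on 0 arrays. SNORD80 passed without background correction (adjusted p = 0.0264) and with trend and robust variance (0.0240). Whether the SNORD80 probe reads RNA of the GAS5 gene was not tested.

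SNHG8 is the host of SNORA24, an H/ACA snoRNA. Its brightest probe, ILMN_3309349, read 11.58, 11.33 and 11.55 with vehicle and 11.39, 11.74 and 11.73 with riluzole. The groups overlapped, with a log2 fold change of 0.14 (95% interval -0.18 to 0.45, adjusted p = 0.700 in limma's fit). A dimmer probe, ILMN_1815658, had -0.35 (0.437), and ILMN_2050921 was detected on 0 arrays. SNORA24 read 7.12, 6.93 and 7.14 with vehicle and 6.34, 6.41 and 6.66 with riluzole. It lay lower on every riluzole array, with a log2 fold change of -0.59 (-0.88 to -0.30) that did not pass (0.0830). Without background correction it was -0.32, and with detection under 0.01 asked of all 6 arrays, where fewer probes were tested, SNORA24 passed (adjusted p = 0.0323). Relative to the brightest SNHG8 probe, SNORA24 moved by -0.73 log2 units, and the groups did not overlap (exact permutation p = 0.1, two-sided). Relative to ILMN_1815658, which was detected on 1 of 3 riluzole arrays, it moved by -0.25 with overlapping groups (0.5).

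SNHG10 is the host of SCARNA13, a small RNA of Cajal bodies, where RNAs of the spliceosome are modified. SNHG10 read 6.96, 6.62 and 6.49 with vehicle and 5.49, 6.68 and 6.34 with riluzole, so riluzole replicate 1 lay far below the rest. Its log2 fold change was -0.52 (95% interval -1.17 to 0.12, adjusted p = 0.427 in limma's fit), and -0.19 without that array. SCARNA13 read 6.59, 6.70 and 6.58 against 6.22, 6.24 and 6.10, a tighter pair of groups that did not overlap. Its log2 fold change of -0.44 did not pass (-0.68 to -0.20, adjusted p = 0.110).

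SNHG5, SNHG6 and SNHG9 did not pass either, and their small RNAs were too dim to compare. SNHG5, host of SNORD50A and SNORD50B, had a log2 fold change of 0.10 (95% interval -0.15 to 0.35, adjusted p = 0.729 in limma's fit). SNHG6, host of SNORD87, had 0.10 (-0.13 to 0.34, 0.698). For both, changes of the size seen on ILMN_3233205 or SNORA16A lie outside the interval. SNHG9, host of SNORA78, read 11.24, 11.17 and 11.18 with vehicle and 10.99, 10.83 and 11.10 with riluzole. Those groups did not overlap, and the log2 fold change was -0.23 (-0.48 to 0.03, 0.385). SNORD50A and SNORA78 were detected on 0 arrays, SNORD50B on 1 array of each group, and SNORD87 on 1 riluzole array.

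Of the 32 small RNAs mapped to these hosts, all 32 lie inside their host in the gene table and 28 had at least 1 probe, 29 probes in all. The gene table also places SNORA103 inside GAS5, which was not in the map and had 0 probes under that name. There were 16 kept probes, for 15 small RNAs. With limma, 1 rose and 1 fell among the 16, and 0.698% of all kept probes were called. The probe that rose, SNORA43, was among the 16 only through the riluzole group, where it was high, so this count is a description. On all 6 arrays 13 of the 16 were detected. The groups did not overlap for 9 probes that lay lower and 2 that lay higher, and 5 overlapped, against 21.8% of all kept probes without overlap. Their median log2 fold change was -0.50, against -0.08 over the 12 host probes and -0.0036 over all kept probes, and 13 of the 16 were negative. Without background correction that median was -0.24, while the host median was -0.07, and over the 13 probes detected on all 6 arrays it was -0.59, or -0.28 without background correction. Of the 8 kept H/ACA probes 7 were negative (median -0.43, or -0.20 without background correction), and of the 7 kept C/D probes 5 were (median -0.59, or -0.28). Among single probes not yet given without background correction, SNORD99 stood at -0.28, SNORA73A at -0.27, SCARNA13 at -0.21, SNORD31 at -0.42 and SNORD22 at 0.24. These shares describe kept probes only and compare small groups of probes that share a precursor. The labelling kit primes from poly(A) tails, which mature snoRNAs lack, and the RNA columns retain small RNAs poorly. Whether the small RNA probes read mature snoRNAs, unspliced hosts or other transcripts was not tested.

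In 14 pairs of a kept small RNA probe and the brightest kept probe of its host, the relative change could be formed on each array. The small RNA lay lower relative to its host on every riluzole array in 2 pairs, SNORA24 and SNORD31. It lay higher in 4 pairs, and the groups overlapped in 8. Each of those 4 rests on a probe that was not above background on at least 2 arrays of a group. SNORA43 was detected on 0 vehicle arrays, SNORD22 on 1, and SNHG3, host of SNORA73B and RNU105A, on 1 riluzole array, so no size or direction is drawn from them. Relative to ILMN_3233205, the SNHG7 probe that rose, SNORA43 moved by -0.24 log2 units with overlapping groups. Both probes were singled out for their rise, so that value is a description. Of the 8 pairs with both probes detected on all 6 arrays, the groups overlapped in 6, and the small RNA lay lower in 2 and higher in 0. The share of such differences over all pairs of probes was not computed, so these counts are a description. Among all single kept probes, 21.8% had groups that did not overlap. The smallest exact permutation p, two-sided, was 0.1, and the smallest after adjustment over the 14 pairs was 0.233, so none passed and none could have passed with 3 arrays per group.

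**Figure D4:**
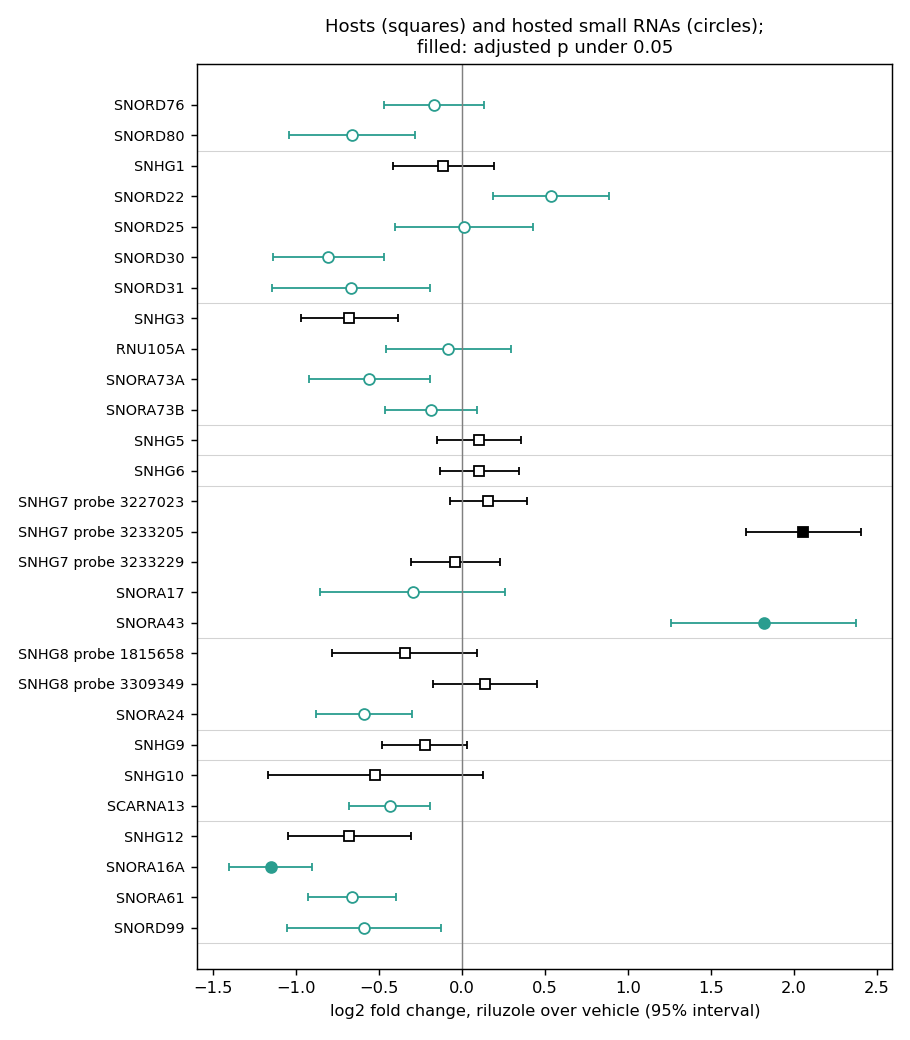
Log2 fold change of riluzole over vehicle for each kept host probe (squares) and hosted small RNA (circles), grouped by host, with 95% intervals from limma; filled symbols passed an adjusted p of 0.05. The 3 filled symbols are ILMN_3233205 of SNHG7 at 2.06, SNORA43 at 1.82 and SNORA16A at -1.15, and the open circles lie mostly left of 0.

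Genes that act on or resemble these hosts were counted in the same limma fit. Of 15 kept probes of other noncoding snoRNA hosts 0 passed and 3 had an unadjusted p under 0.05, against 15.6% of all kept probes, with a median log2 fold change of -0.03. Among them a probe of SNHG32, named C6orf48 on the array, had -0.67 with overlapping groups (adjusted p = 0.175) while its other 2 probes had 0.23 and 0.06, and SNHG11 had 0.45 (0.194). Both are named after their values were seen. Of 34 kept probes of the proteins that assemble and bind snoRNAs 0 passed and 4 had an unadjusted p under 0.05 (median -0.08, 23 negative). The lowest was a probe of SNU13, named NHP2L1 on the array, which binds the kink of C/D snoRNAs. It had -0.54 (0.124) against -0.14 and -0.07 on the gene's other 2 probes, and its value was also seen first. Of 22 kept probes of nonsense-mediated decay factors 0 passed and 2 were under 0.05 unadjusted (median 0.05). Of 40 kept probes of TOP transcripts and their regulators 0 passed and 1 was under 0.05 unadjusted (median -0.08). Of 48 kept probes of coding hosts of snoRNAs 0 passed and 5 were under 0.05 unadjusted (median -0.07). None of these lists differed from all kept probes by more than 0.1 log2 units in its median. A median does not show how single probes moved. Those of the proteins that assemble and bind snoRNAs ran from -0.54 to 0.11. Every probe of that list whose groups did not overlap lay lower with riluzole. Over all kept probes without overlap, 11% lay higher and 10.9% lower, as shares of all kept probes. The pattern in that list was seen after the fit and is a description. Whether any list differs as a set was not tested.

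**Figure D5:**
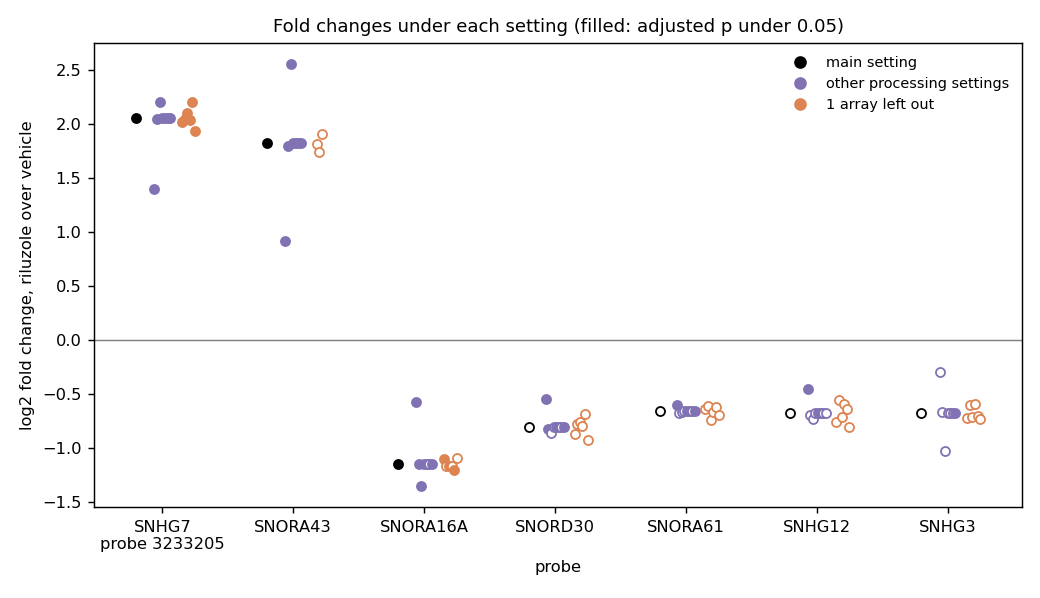
Log2 fold change of 7 probes under the main setting (black), under the other processing settings (purple) and with 1 array left out (orange), filled where the adjusted p was under 0.05. ILMN_3233205 of SNHG7 is filled in every setting that tested it, SNORA43 and SNORA16A lose the call with arrays left out, and SNHG12, SNHG3, SNORD30 and SNORA61 keep values below 0 whether or not they pass.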

How the data were processed

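MDA-MB-231 cells were measured on 6 Illumina bead arrays, 3 per group. The authors deposited a signal intensity per probe, per the file headers the average bead signal, and beside it a detection p-value. They also deposited processed intensity values for the same arrays, and how they were made is not given in sources used here. Those values are linear, with some below 0, and their direction is that of the signal. They served as an alternative, set to at least 16 before log2.

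The 979 control rows were left out. The neqc function of limma 3.58.1 (R 4.3.3) was applied to the rest (normexp background from the detection p-values, offset 16, quantile normalization, log2). Probes detected under p 0.05 on at least 3 of 6 arrays were fitted by probe, with group as the only term, in lmFit and eBayes. P-values were adjusted by Benjamini-Hochberg over all 20788 kept probes. The offset draws folds of dim probes toward 1. The script was tested on simulated data. Differences between 2 probes on the same array were compared by exact permutation of the arrays. The number of arrays limits the precision.

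All 10 hosts and all mapped small RNAs with a probe are reported. Of the other lists, the rule named up to 4 members past the threshold. The members and lists were chosen with earlier results of these data known. Array symbols and gene neighbours were looked up in RefSeq's GRCh38.p14 gene table, and array names are kept in the text where they differ. Alternatives were the background correction, the scaling, the processed values, the detection filter, the variance model, the replicate number as a block, 1 probe per gene, and each array left out.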

Additional observations from a re-analysis of the deposited data

How the results depend on the processing

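The SNHG7 probe ILMN_3233205 passed under all 7 other settings that tested it (log2 fold change 1.39 to 2.20), and with each of the 6 arrays dropped in turn (1.93 to 2.20, adjusted p from 0.00393 to 0.0404). SNORA43 passed under its 7 other settings (0.91 to 2.55), but 0 of 3 times when a vehicle array was dropped. Because SNORA43 was kept through the riluzole group alone, these passes are a description. With every probe tested, its adjusted p in limma's fit was 0.0476. SNORA16A passed under 6 of 7 other settings, and 3 of 6 times when an array was dropped.

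Over all kept probes, 145 passed. The count was 684 without background correction, 47 with the authors' processed values, 78 with every probe tested, 405 when detection under 0.01 was asked of all 6 arrays, 758 with an intensity trend and robust variance, 15 with the replicate block, and 7 to 23 with an array left out. Host probes past the threshold were 2, with SNHG12 added, without background correction, with the stricter detection filter and with trend and robust variance, and 1 in every fit with an array left out. With 1 probe per gene, where ILMN_3233205 does not stand for SNHG7, the 1 host past the threshold was SNHG3. Hosted small RNA probes past the threshold were 5 without background correction, 5 with trend and robust variance, 4 with 1 probe per gene, 1 with the replicate block (where SNORA16A had an adjusted p of 0.0513) and 0 to 1 with an array left out. The median over host probes was 0.10 with the stricter detection filter, which kept fewer of them, and -0.16 to 0.007 with an array left out. The median over hosted small RNA probes, an alternative chosen after seeing the data, was -0.24 without background correction, -0.66 with the stricter detection filter, which kept 5 of them, and -0.51 to -0.45 with an array left out. The cause of the other shifts was not tested.

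Signs turned only close to 0. SNORA61 relative to SNHG12 was -0.15 without background correction. With an array left out, ILMN_3233229 of SNHG7 ran from -0.12 to 0.039, SNORD25 from -0.17 to 0.13 and RNU105A from -0.26 to 0.016. Samples with the same number did not deviate together (correlations across probes of -0.13, -0.096 and -0.00018). The labels do not say whether the number pairs them, and correlations from 3 arrays per group cannot settle it. Why calls were lost under the block was not tested.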

Other observations

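The array also carried a probe named C6orf160, an older symbol of SNHG5 that the choice by symbol leaves out. It was detected on 6 arrays and went from 13.79 ± 0.27 to 13.99 ± 0.21 log2 units (SD, n = 3 per group), a log2 fold change of 0.20 that did not pass (adjusted p = 0.634 in limma's fit).

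The mean centred log2 signal of the 9 hosts with a kept probe, each by its brightest probe, was 0.13, 0.07 and 0.09 on the vehicle arrays and -0.21, -0.06 and -0.02 on the riluzole arrays. As a description over 6 arrays, which fall into the 2 groups and share their normalization, the named probes most like this profile were those of GAD1 (Pearson r = 0.993), TRIP6 (0.992) and PDLIM5 (0.990).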
